A study of Mus musculus with 16 samples.

Results

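The comparison described here set mice with a passive coping strategy (PS) after chronic social defeat against control mice, with both groups given dexamethasone (DEX). Its members were the 3 dorsal raphe libraries labelled dep1_dex (1 library each from 3 mice) and the 3 labelled con_dex (likewise from 3 mice), chosen by their labels alone, out of 16 libraries in the series. All animals were adult C57BL/6 males, and each library held polyA RNA from punches of the dorsal raphe nucleus (DRN) of 1 animal. The PS mice had met aggressive CD1 males for 30 days and were separated from actively coping (AS) mice by clustering of their behavior in a social test. The control mice were not defeated and were kept singly for some days before the experiment. Every animal of both groups received 2 mg/kg of DEX and tissue was taken 6 h later, so the groups differed in stress history and shared the drug. The saline counterparts (3 control and 2 PS libraries) and the AS libraries (3 saline, 2 DEX) entered the same fit and are shown only beside the main values. A limit of the PS group as a model is that it is a cluster of behavior within the defeated animals. The study removed 1 PS library and 2 AS libraries of the DEX arm, and none of the control libraries, for low Tph2. The level of Tph2 thus had a part in which PS and AS libraries are here.

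DEX binds the glucocorticoid receptor, encoded by Nr3c1, a ligand-activated transcription factor that moves from a chaperone complex in the cytoplasm to the nucleus and binds DNA as a dimer at a partly palindromic element. Classical targets include Fkbp5, which encodes a co-chaperone that lowers the receptor's affinity for hormone, and Tsc22d3, Per1, Sgk1 and the metallothioneins. The DRN holds most of the serotonin neurons that reach the forebrain, and these neurons express the receptor. The question of the comparison was whether stressed and unstressed animals differed in DRN gene expression once the receptor had been driven by the drug.

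The receptor's DNA element is shown because its target genes are where both groups met the drug. A 13-base form of it, GNACA and TGTNC with any 3 bases between them (N is any base), reads the same on both strands. It was searched in the RefSeq promoter windows of mouse build GRCm38.p6. Each window is 300 bases long, with 250 bases before and 50 after a transcript's start. The motif stood in 156 of 32851 windows (0.475%) and in 44 of the 10282 tested genes with a window (0.428%). Of 33 glucocorticoid target genes tested, 27 had a window and 4 held the motif. These are given in the direction of the gene with 20 bases on each side, the motif in capitals. The motif starts 181 bases before the RefSeq transcript start used in Map3k6, 94 in Mt1, 188 in Sgk1 and 118 in Fam107a. In Sgk1 (chromosome 10, 21882184 to 21999903) and Fam107a (chromosome 14, 8296274 to 8318023) that start lies inside the annotated gene.
Map3k6 (chr4:133240617-133240669, plus strand): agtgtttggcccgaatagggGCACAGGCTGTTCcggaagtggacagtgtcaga
Mt1 (chr8:94178975-94179027, plus strand): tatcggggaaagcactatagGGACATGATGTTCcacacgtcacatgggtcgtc
Sgk1 (chr10:21993682-21993734, plus strand): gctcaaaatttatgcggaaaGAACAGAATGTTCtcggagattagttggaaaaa
Fam107a (chr14:8309865-8309917, minus strand): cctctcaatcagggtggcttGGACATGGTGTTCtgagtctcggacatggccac
A match is a description of these letters and not a measured binding site, and a window without them says nothing about the receptor at that gene.

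The 6 libraries held between 38207157 and 54638098 reads in the 14504 listed genes. Values are normalized counts, that is, reads divided by a size factor of the library, and differences are on the log2(normalized count + 1) scale as PS minus control. That scale understates the difference of low genes. A library's correlation with another of its own group (Pearson's r of log2 values across genes) was 0.958 to 0.984 within PS and 0.978 to 0.987 within controls, and it was 0.968 to 0.989 between the groups, so that libraries of the same group were no more alike than libraries of different groups. Both ends of a set of ribosomal RNA-like transcripts were held by libraries of this comparison: they took 2.41% of the normalized counts of library dep1_dex_34 and 0.133% of those of con_dex_116, against 0.305% to 0.921% in the other 14 libraries. Counts of genes are therefore also given without these libraries.

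No gene passed the test. In limma with Benjamini-Hochberg adjustment over 14504 genes, 0 genes (0%) had an adjusted p under 0.1, and the smallest adjusted p was 0.999947. At an unadjusted p under 0.05 there were 178 genes (1.23%), 107 of them higher in PS (0.738%) and 71 lower (0.49%). That is less than the share of 0.05 that such a threshold passes on average when no gene differs. Shares of lists are set beside it as a description only. edgeR's quasi-likelihood test called 0 genes and DESeq2 called 0, with 190 and 212 genes at an unadjusted p under 0.05. In 1111 genes (7.66%) all 3 PS libraries lay on one side of all 3 control libraries, above them in 574 (3.96%) and below in 537 (3.7%). Without library dep1_dex_34 the count at an unadjusted p under 0.05 was 138, without library con_dex_116 it was 83, and without both it was 69. It was 542 without PS library dep1_dex_6, 100 without PS library dep1_dex_64 and 303 without AS saline library dep2_sal_40, and 0 genes were called each time.

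The absence of calls came with a measurable precision. The median standard error (SE) of a gene's log2 difference was 0.17, with 0.0999 at the 10th and 0.46 at the 90th percentile of genes. For 12364 genes (85.2%) the 95% interval of the difference lay between -1 and 1, and for 7896 genes (54.4%) between -0.5 and 0.5. Differences themselves were small, with quartiles of -0.097 and 0.12. An absolute difference over 1 was seen in 204 genes (1.41%), most of them scarcely expressed, with a median normalized count of 6.85. Among the 13365 genes with a mean of at least 50, 23 exceeded 1, and 12 of these are annotated as protein coding. The plot of all genes against mean level shows this funnel.

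**Figure D1:**
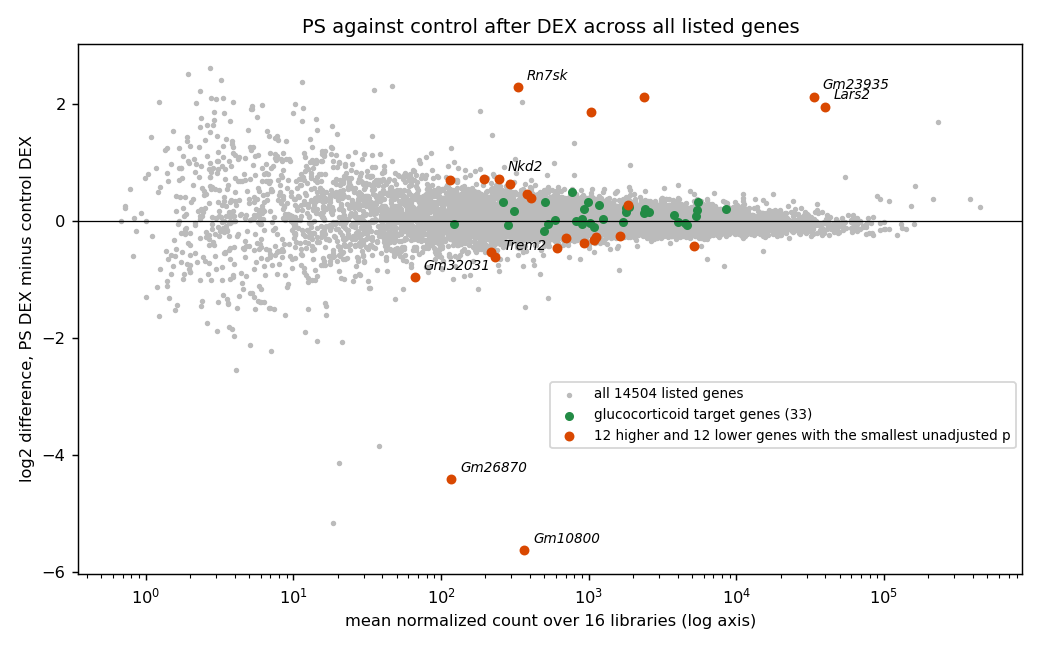
Log2 difference of PS DEX minus control DEX (vertical) against the mean normalized count over 16 libraries (horizontal, log axis) for all 14504 genes. Grey points are all genes, green points the 33 glucocorticoid target genes and orange points the 12 higher and 12 lower genes with the smallest unadjusted p; the green points lie between -0.17 and 0.50, while Rn7sk, Lars2 and Gm23935 lie near or above 2 and Gm10800 and Gm26870 below -4.

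Every glucocorticoid target gene tested had overlapping values in stressed and control mice after DEX. Of the 33 members tested, 0 were called, 2 were at an unadjusted p under 0.05 (both higher; 1.23% of all genes in either direction), and none had groups that did not overlap (7.66% of all genes). Their median difference was 0.099 (all genes -0.00028), with 22 positive and 11 negative values between -0.17 and 0.50. The 95% interval lay within -1 to 1 for 31 of the 33. Without libraries dep1_dex_34 and con_dex_116 the median was -0.016. Their median DEX minus saline value was 0.84 in controls and 0.98 in PS, with 22 and 19 members called, beside 1.26% and 0.703% of all genes. The list was chosen with earlier results of these data known, so its shares of called members only describe it. These 2 DEX effects share libraries with the stress comparison and are given only beside it.

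Fkbp5, the co-chaperone gene (ENSMUSG00000024222.17, GRCm38 chromosome 17, 28399094 to 28517527), had 5642, 6958 and 6517 normalized counts in the PS libraries dep1_dex_6, dep1_dex_34 and dep1_dex_64 and 5701, 5771 and 6330.1 in the controls con_dex_101, con_dex_116 and con_dex_122, the order kept from here on. The groups overlapped, with library dep1_dex_6 lowest and library dep1_dex_34 highest of all 6. The means were 6372 ± 669.6 and 5934 ± 345 (SD, n = 3 each), and the log2 difference was 0.10 (SE 0.10, 95% interval -0.11 to 0.31). Its saline level was 1519 and 1536 in the PS libraries and 1293, 1356 and 1241 in the controls.

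Plin4, which encodes a lipid droplet coat protein (chromosome 17, 56100591 to 56109803), had 3283, 3594 and 4421 in PS and 3847, 2169 and 3799 in controls. Control library con_dex_116 was far below the other 5, and its absence turned the difference of 0.24 (SE 0.24) to -0.033. Cdkn1a, the cell cycle inhibitor p21 (chromosome 17, 29090976 to 29100727), had 3408, 3599 and 3213 in PS and 3432, 2457 and 2939 in controls. Here too library con_dex_116 was the lowest, the groups overlapped, and the difference of 0.22 (SE 0.14) was 0.059 without libraries dep1_dex_34 and con_dex_116. Zbtb16, a zinc finger transcription factor (chromosome 9, 48654297 to 48836222), had 4016, 3887 and 4441 in PS and 3470.2, 3298 and 4540.3 in controls, a difference of 0.14 (95% interval -0.24 to 0.52). The highest and the lowest values of Zbtb16 were both in controls.

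The groups overlapped in all 4 genes with the motif. Sgk1, a kinase gene of ion transport and cell survival, had 5996, 5982 and 4995 in PS and 6333, 5445 and 5389 in controls, a difference of -0.018 (95% interval -0.30 to 0.27). Mt1, a metal-binding metallothionein, had 6855, 13369 and 16664 and 9041, 9898 and 11044, with the lowest and the highest values both in PS. For Map3k6, a stress kinase, the values were 281, 585 and 493 and 328, 318 and 396, again with both extremes in PS. Fam107a, a stress-responsive actin-binding protein, had 6516, 8211 and 9874 and 7359.9, 6572 and 7329 and a difference of 0.19 (95% interval -0.088 to 0.47).

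The 2 members at an unadjusted p under 0.05 were chosen for mention after their values were seen. Klf15, a transcription factor of amino acid and lipid metabolism (chromosome 6, 90462576 to 90475238), had 1346, 1684 and 1721 in PS and 1292, 1196 and 1449 in controls, a difference of 0.27 (SE 0.12, limma unadjusted p 0.0391). Pla2g3, a secreted phospholipase (chromosome 11, 3488284 to 3499350), had 799.7, 911 and 878 and 812, 605 and 673, a difference of 0.32 (SE 0.15, limma unadjusted p 0.0476). In each gene 1 PS library lay under the highest control library. The largest difference of the list belonged to Hif3a, a hypoxia-inducible factor that opposes its relatives, at 0.50 (95% interval -0.26 to 1.26), and the lowest to Dusp1, a phosphatase that shuts down stress kinases, at -0.17 (95% interval -0.53 to 0.18). Per1 and Tsc22d3 were at 0.14 (SE 0.17) and 0.090 (SE 0.15).

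**Figure D2:**
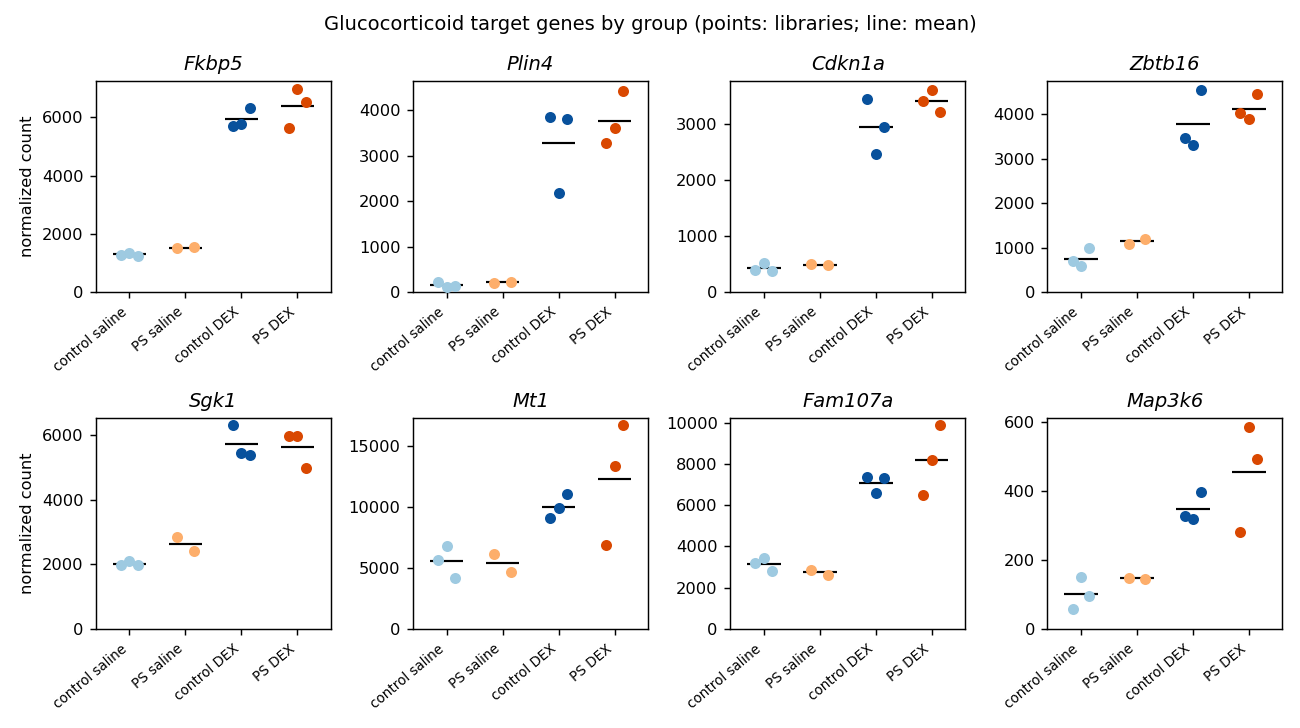
Normalized counts of 8 glucocorticoid target genes in control and PS mice after saline or DEX (vertical axes from 0; points are libraries, lines are group means; 3 control saline, 2 PS saline, 3 control DEX and 3 PS DEX libraries). In each of Fkbp5, Plin4, Cdkn1a, Zbtb16, Sgk1, Fam107a and Map3k6 every DEX library lies above every saline library, in Mt1 every DEX library lies above the highest saline library by a narrower margin, and in all 8 the PS DEX and control DEX points overlap.

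The receptors and their machinery gave a median difference of -0.19 over 14 tested members (12 negative), with 0 called and 0 at an unadjusted p under 0.05. Nr3c1, the glucocorticoid receptor itself, had 4432, 4087 and 4122 in PS and 4095, 5624 and 4993 in controls. Control library con_dex_101 lay inside the PS range, and the difference of -0.21 (SE 0.11, limma unadjusted p 0.0910) was -0.081 without libraries dep1_dex_34 and con_dex_116. Nr3c2, the mineralocorticoid receptor (chromosome 8, 76899442 to 77245012), had 1555, 1258 and 1266 and 1451, 1341 and 1463, a difference of -0.067 (95% interval -0.35 to 0.22). Crh, the precursor of corticotropin-releasing hormone, was the single member of 14 without overlap (PS below in 3.7% of all genes). It had 52.2, 53.2 and 54.9 in PS and 67.4, 65.5 and 56.01 in controls. Its difference of -0.23 was smaller than its SE of 0.37. Of 24 heat shock proteins, the family that holds the receptor's chaperones, 19 were negative with a median of -0.11, and Hspa4, Hspa4l and Dnajb4 had every PS library below every control library, as had 3.7% of all genes.

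Of 23 serotonergic genes tested, 2 had every PS library below every control (3.7% of all genes), 0 were called and 0 were at an unadjusted p under 0.05, with a median of -0.082 and 18 negative values. Tph2, the rate-limiting enzyme of brain serotonin synthesis (ENSMUSG00000006764.8, chromosome 10, 115078641 to 115185022), had 103851, 124443 and 106205 in PS and 108805, 161346 and 128674 in controls. Control library con_dex_101 lay inside the PS range and library con_dex_116 was the highest, for a difference of -0.24 (SE 0.22, 95% interval -0.71 to 0.23). Because low Tph2 had removed a PS library, this value and those of the other serotonergic genes and serotonin neuron markers are a description of the libraries kept. Slc6a4, the serotonin transporter (chromosome 11, 76998603 to 77032340), had 86003, 92994 and 89257 in PS and 85557, 106879 and 106483 in controls, and library con_dex_101 was the lowest of all 6. Fev, the Pet1 transcription factor of serotonin neuron identity, had 4303, 3876 and 4206 and 3813, 4274 and 4499.5, a difference of -0.021 (95% interval -0.60 to 0.55).

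Maoa, the monoamine oxidase that degrades serotonin and noradrenaline (ENSMUSG00000025037.6, chromosome X, 16619698 to 16687818), had 5251, 5511 and 5284 in PS and 5528, 6789 and 5845 in controls. All 3 PS libraries were below all 3 controls, with dep1_dex_34 and con_dex_101 nearly level, and the difference was -0.17 (SE 0.13, limma unadjusted p 0.196). En1, a homeobox factor of midbrain monoamine neurons, was the other member without overlap, with 3654, 3340.4 and 3528 in PS and 3725, 3879 and 4007 in controls. Among receptors, Htr1a, the somatic autoreceptor, had 5171, 4954 and 4804 and 4971, 6124 and 5592, a difference of -0.16 (SE 0.11). Htr1d, an autoreceptor of the terminals, had 1606, 1563 and 1429.6 and 1522, 1461 and 1648, and Htr5b had 390.1, 631 and 634 and 379.9, 733 and 712. Their differences were -0.010 (SE 0.12) and -0.11 (SE 0.31), so Htr1d was the more closely bounded.

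The genes with the smallest unadjusted p among those without overlap and with a mean of at least 50 give a description of where the comparison leaned, and none of their adjusted p was under 0.999. On the higher side the protein-coding genes began with Nkd2, an inhibitor of Wnt signaling that binds Dishevelled (ENSMUSG00000021567.15, chromosome 13, 73818534 to 73847631). It had 331, 253 and 320.2 normalized counts in PS and 187, 176 and 182 in controls. The controls lay within a narrow band and every PS library stood well above it, for a difference of 0.72 (SE 0.17, 95% interval 0.36 to 1.07, limma unadjusted p 0.000716). The difference was 0.82 without libraries dep1_dex_34 and con_dex_116.

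Kcnj5, the GIRK4 subunit of G protein-gated inward rectifier potassium channels (chromosome 9, 32314707 to 32344350), had 385, 398 and 285 in PS and 228, 197 and 264 in controls, a difference of 0.63 (SE 0.18, limma unadjusted p 0.00409). Libraries dep1_dex_6 and dep1_dex_34 were high, while library dep1_dex_64 was close to control library con_dex_122. It was the only one of 70 potassium channel genes at an unadjusted p under 0.05, and the channels' median was -0.013. Rbm38, an RNA-binding protein and target of p53 (chromosome 2, 173020498 to 173034734), had 228, 273 and 332 and 188, 146 and 171, a difference of 0.71 (SE 0.22). Gcfc2, a nuclear factor linked to intron turnover (chromosome 6, 81923669 to 81959915), had 464, 516 and 503 and 407, 354 and 318, a difference of 0.46 (SE 0.13). Both had every PS library above the controls, by a gap narrower than the spread of the 3 control libraries.

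Tcea2, a transcription elongation factor (chromosome 2, 181680310 to 181688071), differed by 0.27 (SE 0.090) with 1818, 1887 and 2226 in PS and 1669, 1573 and 1670.1 in controls. Alkbh3, a demethylase that repairs alkylated nucleic acids (chromosome 2, 93980550 to 94010807), differed by 0.39 (SE 0.14) with 436, 437 and 486 and 353, 369 and 312. N4bp2os, a noncoding transcript antisense to N4bp2 (chromosome 5, 65760991 to 65764379), had 129, 134 and 123 and 73.2, 72.9 and 91.7. Since the strand setting of the read counting is not given in the sources used here, reads of this transcript and of its partner cannot be told apart.

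On the lower side Trem2, a lipid-sensing receptor of microglia (ENSMUSG00000023992.14, chromosome 17, 48346401 to 48354147), had 123, 155 and 185 in PS and 258, 247 and 204 in controls. The highest PS library, dep1_dex_64, lay under the lowest control, con_dex_122, and the difference was -0.63 (SE 0.18, 95% interval -1.02 to -0.23, limma unadjusted p 0.00444). In bulk tissue fewer cells of a type and less RNA per cell cannot be told apart. Among the other 20 microglial markers none was at an unadjusted p under 0.05, the median of the 21 was -0.042, and their summed counts were 11478 to 12892 in PS and 12015 to 13453 in controls. Cx3cr1, the fractalkine receptor that defines microglia, had 556, 458 and 515 and 512, 738 and 527.

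Gm32031, a noncoding transcript (chromosome 7, 47008083 to 47009008), had 42.4, 41.1 and 38.04 in PS and 74.4, 83.04 and 82.3 in controls, a difference of -0.96 (SE 0.24, 95% interval -1.49 to -0.44). Ankrd12, an ankyrin repeat protein that recruits histone deacetylases (chromosome 17, 65965698 to 66077089), had 4296, 4145 and 5207 and 6269, 5718 and 6355, a difference of -0.43 (SE 0.14). Trim36, a ubiquitin ligase, had 375, 503 and 402 and 531, 681 and 554, a difference of -0.47 (SE 0.15). In Trim36 the top PS library was close to the lowest control.

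Sptssb, a small subunit of the enzyme that starts sphingolipid synthesis (chromosome 3, 69819542 to 69859940), had 161, 196 and 174 in PS and 263, 267 and 243 in controls, a difference of -0.54 (SE 0.19). Cyb561d1, a member of the cytochrome b561 family of membrane electron carriers (chromosome 3, 108195687 to 108201212), had 576, 597 and 559 and 731, 715 and 676, a difference of -0.29 (SE 0.10). Galntl6, a relative of the glycosyltransferases that start O-linked sugar chains (chromosome 8, 57774052 to 58912640), had 1457, 1583 and 1699 and 1825, 1885 and 1938, a difference of -0.26 (SE 0.084). All 3 genes had a spread within each group smaller than the gap between the group means. Zc3h6, Arhgef6 (an exchange factor for Rac and Cdc42) and Ankrd29 completed the list at -0.32, -0.27 and -0.37.

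**Figure D3:**
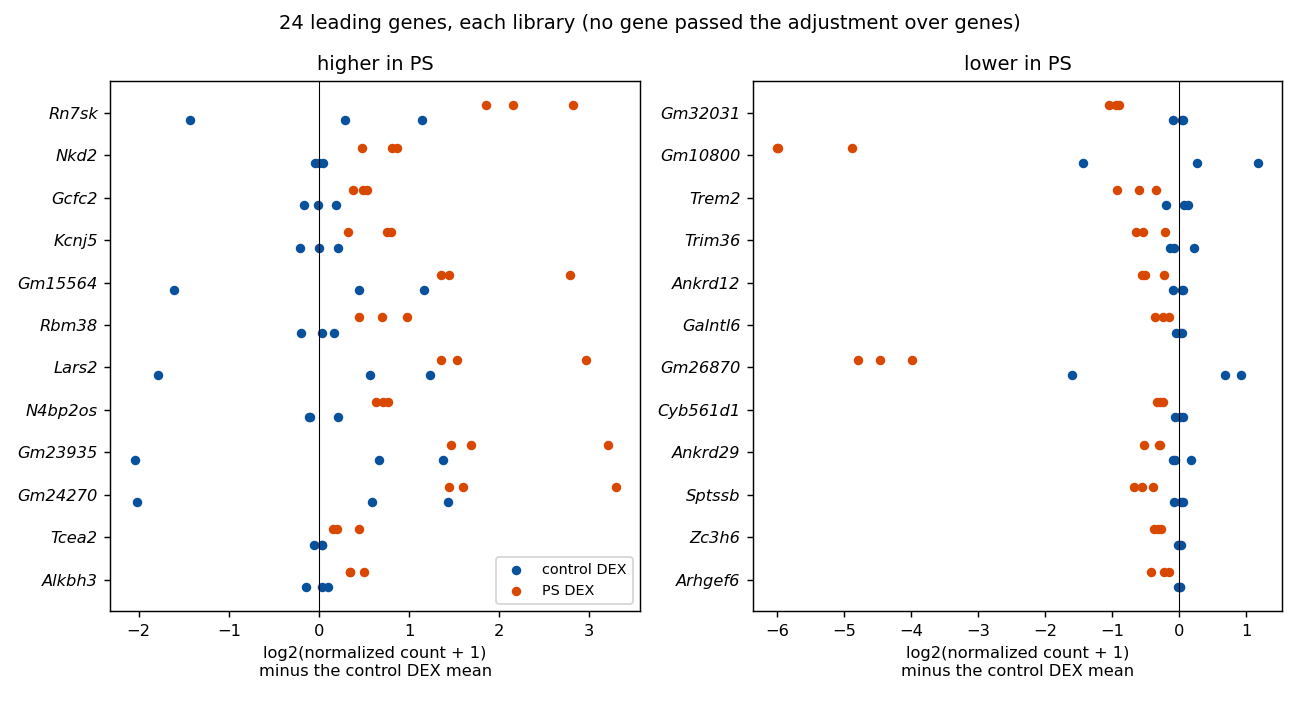
Each library's log2(normalized count + 1) minus the control DEX mean (horizontal) for the 12 higher (left) and 12 lower (right) genes with the smallest unadjusted p among those without overlap; orange points are the 3 PS DEX libraries and blue points the 3 control DEX libraries. Nkd2, Gm32031 and Zc3h6 show tight, separate groups, while in Rn7sk, Lars2, Gm15564, Gm23935, Gm24270, Gm10800 and Gm26870 the controls spread over more than 2 units.

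Rn7sk and several other noncoding or repeat-bearing gene models differed by more than 2 on the log2 scale. Of the 107 higher genes at an unadjusted p under 0.05, 40 (37.4%) were not protein coding, against 14.6% of all genes tested and 13 of the 71 lower genes (18.3%). Rn7sk, the small nuclear RNA that holds the elongation factor P-TEFb inactive (ENSMUSG00000065037.1, chromosome 9, 78175303 to 78175633), had the smallest p of all. Its values were 515, 1003 and 632 in PS and 314, 51.7 and 173 in controls. Every PS library was above every one of the other 13 libraries. The difference was 2.28 (SE 0.49, 95% interval 1.21 to 3.34, limma unadjusted p 0.000420), and 1.29 without libraries dep1_dex_34 and con_dex_116. In the whole series Rn7sk was highest in dep1_dex_34 and lowest in con_dex_116, as were the ribosomal RNA-like transcripts described next. The libraries held polyA RNA, and the part of library preparation in the Rn7sk counts was not tested.

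Gm42418 (chromosome 17, 39846958 to 39848788), which overlaps the annotated ribosomal RNA gene CT010467.1, had 262320.0, 805981 and 295319 in PS and 260975, 50471 and 142206 in controls. Lars2, mitochondrial leucyl-tRNA synthetase (chromosome 9, 123366927 to 123462666), whose mouse gene is known to contain a ribosomal RNA-like stretch, had 48994, 149857 and 55605 and 45083, 5554 and 28384. Gm23935 (chromosome 16, 11144125 to 11144181), a short model annotated as a miRNA, had 41919.8, 140420.0 and 48785 and 39466, 3669 and 24080.4. The same order of libraries appeared in all 3, with dep1_dex_34 highest and con_dex_116 lowest, and these were the extremes also in Gm24270, Gm24187 and the antisense model Gm15564. The differences of Gm42418, Lars2 and Gm23935 were 1.69 (SE 0.60), 1.95 (SE 0.61) and 2.12 (SE 0.69). Without libraries dep1_dex_34 and con_dex_116 they were 0.55 for Lars2 and 0.55 for Gm23935, with limma unadjusted p of 0.155 and 0.196. The 6 models together took 0.764%, 2.41% and 0.906% of normalized counts in PS and 0.759%, 0.133% and 0.426% in controls, and the models of the sum were chosen after their values were seen. These models share sequence with ribosomal RNA or with each other, so their counts are uncertain. The part of library preparation in them was not tested.

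The lowest values of the comparison belonged to 5 gene models that bear satellite repeat and are near-copies of each other, which makes their counts uncertain too. Gm10800 (chromosome 2, 98666547 to 98667301) had 9.78, 9.68 and 22.2 in PS and 816, 1544 and 251 in controls, a difference of -5.62 (SE 1.63, limma unadjusted p 0.00392). Gm26870 (chromosome 9, 3000282 to 3038313) had 6.52, 12.1 and 8.45 and 333, 391 and 67.9, a difference of -4.42 (SE 1.47). Gm10801 was listed at 0 in all 3 PS libraries and at 44.1, 83.04 and 11.03 in controls. With Gm21738 and Gm10722 the sum of the 5 models was 20.6, 24.2 and 47.5 in PS and 1344, 2265 and 375 in controls. Across all 16 libraries Gm10800 was over 200 in 8 and under 100 in the other 8, and both kinds occurred in control saline, PS saline, AS saline and AS DEX. Only the 2 groups compared here were each wholly of 1 kind.

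**Figure D4:**
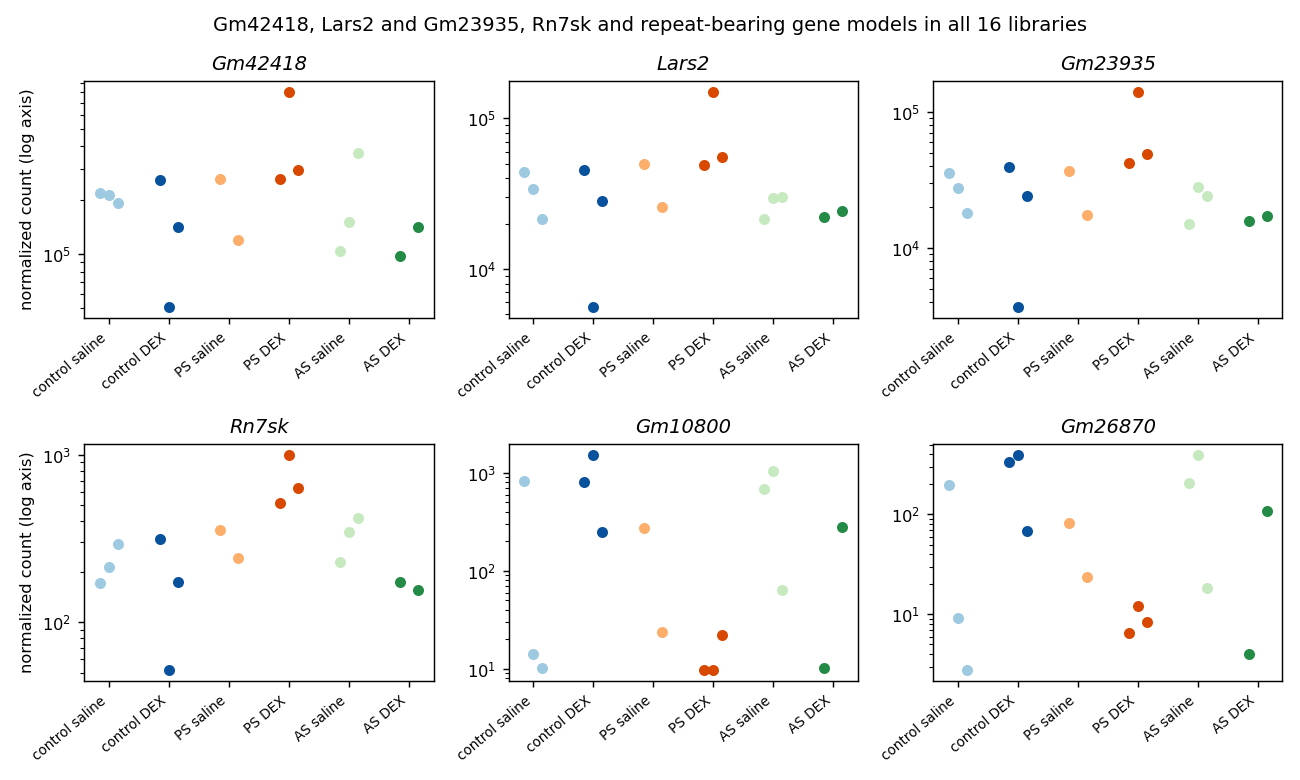
Normalized counts (log axes) of Gm42418, Lars2, Gm23935, Rn7sk, Gm10800 and Gm26870 in all 16 libraries by group; each point is a library. PS DEX library dep1_dex_34 is the highest and control DEX library con_dex_116 the lowest point for Gm42418, Lars2, Gm23935 and Rn7sk, and Gm10800 is over 200 in 8 libraries and under 100 in the other 8.

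Gene lists were read by their counts and medians beside those of all genes, with 0 members called in any of them. Genes of the cholesterol synthesis list leaned low: 21 of 23 were negative, the median was -0.14, and 4 had every PS library below every control (3.7% of all genes). Stard4, a carrier of cholesterol between membranes, had 3315, 3375 and 3046 in PS and 3811, 3834 and 3782 in controls, a difference of -0.23 (SE 0.087, limma unadjusted p 0.0189). Sqle and Mvk, both enzymes of the pathway, were at -0.17 and -0.15. With library weights the list's median was -0.043.

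Energy and protein synthesis genes leaned the same way by small amounts, as they did in AS mice after DEX against the same controls. Of 84 nuclear oxidative phosphorylation genes 78 were negative (median -0.13), and of 80 cytosolic ribosomal proteins 69 (median -0.098). Of 77 mitochondrial ribosomal proteins 64 were negative (median -0.077) and of 42 proteasome genes 35 (median -0.11). After saline the medians of PS minus control were -0.27, -0.39, -0.26 and -0.24 in the same order. In each list 0 were at an unadjusted p under 0.05, and 3, 1, 4 and 2 members had every PS library below the controls, beside 3.7% of all genes. Over the alternatives run, leaving out single libraries included, the median ranged from -0.21 to 0.023 for oxidative phosphorylation, from -0.19 to 0.096 for cytosolic ribosomal proteins, from -0.15 to 0.048 for mitochondrial ribosomal proteins and from -0.17 to 0.0079 for the proteasome, so that none of the 4 kept its sign throughout. Library con_dex_116 was the highest control in each of the 80 cytosolic ribosomal protein genes. Rpl32 had 7871 there, against 5523 in con_dex_101 and 5201 in con_dex_122. The summed counts of these genes were 541539 to 668325 in PS and 562562 to 767612 in controls. The 31 mitochondrially encoded genes leaned the other way, with a median of 0.24, 21 positive, and 7 with every PS library above the controls (3.96% of all genes). After saline the median of these 31 was of opposite sign, at -0.26. The mitochondrial tRNA for isoleucine, mt-Ti, was the one at an unadjusted p under 0.05, with 31.5, 47.2 and 53.9 in PS and 19.8, 23.99 and 27.2 in controls. Among the abundant members, mt-Nd4, a subunit of complex I, had 100505, 122759 and 113333 and 100161, 75700.0 and 85322, and the narrowest gap between its groups was that between libraries dep1_dex_6 and con_dex_101. The mitochondrial ribosomal RNAs were at 0.0029 (mt-Rnr1, SE 0.30) and -0.13 (mt-Rnr2, SE 0.33).

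Neuropeptide precursors were mixed, with 10 positive and 15 negative of 25 and a median of -0.093. Gnrh1, the precursor of gonadotropin-releasing hormone (chromosome 14, 67745181 to 67749439), was scarce at 27.2, 19.4 and 33.8 in PS and 15.1, 5.54 and 16.97 in controls, a difference of 1.13 (SE 0.52, limma unadjusted p 0.0456). Sst, somatostatin, had 5398, 5014 and 3874 and 3620.1, 2717 and 3653, with a difference of 0.51 and an SE of 0.42. It was 1 of 3 precursors with all PS libraries above the controls (3.96% of all genes), and 2 others had all PS libraries below them (3.7% of all genes). Among 65 axon guidance genes Robo2, a receptor for Slit proteins (chromosome 16, 73891839 to 74411825), was the one at an unadjusted p under 0.05, with 3697, 3252 and 3400.2 in PS and 3873, 4053 and 4175 in controls and a difference of -0.23 (SE 0.10). Immediate early genes, which report recent neuronal activity, had a median of -0.030 over 18. Junb had 322, 441 and 487 and 390.4, 475 and 356 with a difference of 0.023 (SE 0.23). Npas4, at 305, 346 and 545 and 288, 184 and 269.9, was the 1 member of 18 without overlap (PS above in 3.96% of all genes).

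Interferon, glutamatergic synapse, GABA and glycine receptor, growth factor, clock, matrix, protocadherin and cation channel lists had medians between -0.072 and 0.11, and 0 of their members were at an unadjusted p under 0.05.

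**Figure D5:**
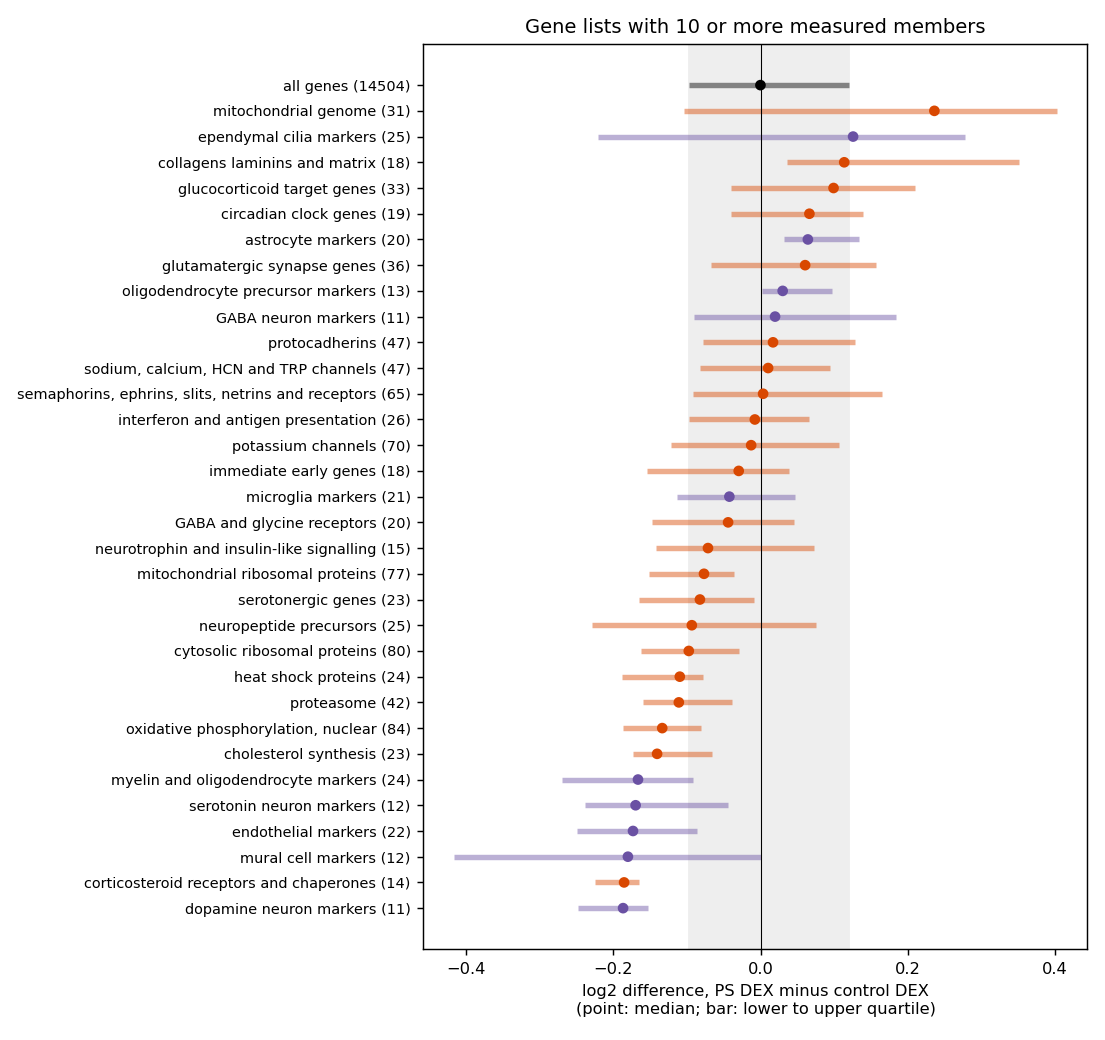
Median (point) and lower to upper quartile (bar) of the log2 difference, PS DEX minus control DEX, for each gene list with at least 10 tested members (number in brackets); orange marks pathway lists, purple cell type markers and black all genes, whose quartile range is shaded. The medians of the lists run from -0.19 for dopamine neuron markers to 0.24 for the mitochondrial genome, and most bars cross or touch the shaded band.

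Cell type markers were checked because punches can differ in what they hold. The 12 serotonin neuron markers were present in every library, with summed counts of 251423 to 282545 in PS and 254820 to 345610 in controls. Their median difference was -0.17 with 11 of 12 negative, and that of the 11 dopamine neuron markers was -0.19 with all 11 negative. None of the 5 noradrenergic markers was among the genes tested. The 22 endothelial markers had a median of -0.17, 19 negative and 4 with every PS library below the controls (3.7% of all genes), and the 12 mural cell markers had a median of -0.18 with 9 negative. Cdh5, the adherens junction cadherin of endothelium (chromosome 8, 104101625 to 104144511), was the lowest of the list and chosen after its values were seen. It had 377, 354 and 265 in PS and 447, 438 and 435 in controls, a difference of -0.42 (SE 0.20, limma unadjusted p 0.0579). After saline its difference was 0.26 and the median of the endothelial list was 0.12. Cldn5, the tight junction protein of the blood-brain barrier, had 807, 758 and 642 and 943, 995 and 788 with overlap. The list's median without libraries dep1_dex_34 and con_dex_116 was -0.10.

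Myelin markers were negative in 23 of 24 with a median of -0.17. Of these, 0 were at an unadjusted p under 0.05 and 0 had groups without overlap (7.66% of all genes). Mbp, myelin basic protein, was at 62242, 75835 and 57979 in PS and 74128, 67937 and 56862 in controls. Astrocyte markers had a median of 0.064 over 20, and Aqp4, the water channel of astrocyte endfeet, was at 5744, 7042 and 8134 and 5649, 7005 and 5444. The 25 motile cilia markers of ependymal cells varied widely between animals, with summed counts of 2959 to 41325 in PS and 4701 to 20711 in controls. Foxj1, the factor that switches on that program, had 241, 1512 and 3451 and 379.9, 1606 and 1931, so that library dep1_dex_6 was lowest and library dep1_dex_64 highest. Tekt2, a tektin of the ciliary axoneme, was the 1 cilia marker of 25 without overlap (PS above in 3.96% of all genes). It was at 121, 149 and 174 and 95.3, 89.5 and 85.7. C1ql1, a secreted synapse organizer also made by oligodendrocyte precursors (chromosome 11, 102939264 to 102946688), had 631, 549 and 431 and 415, 390.3 and 394, a difference of 0.41 (SE 0.16, limma unadjusted p 0.0235). Th, the catecholamine enzyme of the dopamine neurons nearby, was at 2009, 2913 and 2892 and 4497, 2805 and 2191, and Ttr, which marks choroid plexus, at 9.78, 10.9 and 9.51 and 8.13, 24.9 and 8.49. The part of tissue composition in other results was not tested.

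The same contrast after saline shares no library with the one after DEX. It also gave 0 called genes by limma, with 1112 genes (7.67%) at an unadjusted p under 0.05, on 2 PS and 3 control libraries, while edgeR called 0 and DESeq2 called 4 genes. The SD of the log2 differences across genes was 0.28 after DEX and 0.42 after saline. Across the 14504 genes, which are not independent replicates and share composition and depth effects, the differences after DEX and after saline correlated at a Pearson r of 0.254 and a Spearman rho of 0.377, with the same sign in 64.8%. Among the 178 genes at an unadjusted p under 0.05 after DEX, r was 0.024 and rho 0.115, with the same sign in 59.6%. The average over both arms gave 0 called genes by limma (940, or 6.48%, at an unadjusted p under 0.05), 0 by edgeR and 2 by DESeq2.

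The difference between both stress effects was tested directly and called 0 genes in limma, edgeR and DESeq2, with 304 genes (2.1%) at an unadjusted p under 0.05 in limma. Junb, a component of the AP-1 factor, had 244 and 214 in PS saline and 412, 493 and 595 in control saline, where its difference was -1.11, against 0.023 after DEX (limma unadjusted p of the difference 0.00490). Gnrh1 was at -1.98 after saline and 1.13 after DEX (unadjusted p 0.00128), and C1ql1 at -0.44 and 0.41 (unadjusted p 0.00339). Galntl6 and Ankrd12 went from 0.29 and 0.28 after saline to -0.26 and -0.43 after DEX (unadjusted p 0.000689 and 0.00467). None passed the adjustment over genes. Gnrh1, C1ql1, Galntl6 and Ankrd12 had been named by their difference after DEX, which is a part of this contrast. Their unadjusted p-values for it are therefore only a description. By contrast Gcfc2 and Alkbh3 were positive in both arms, at 0.24 and 0.19 after saline, and Gm32031 was negative in both, at -0.47 after saline.

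Against the AS mice given DEX, the other stressed group, limma called 0 genes (247, or 1.7%, at an unadjusted p under 0.05), and AS against control after DEX gave 1, Gm11583, which was lower (0.00689%; 508, or 3.5%, at an unadjusted p under 0.05). These comparisons share libraries with the one described here. The 33 glucocorticoid target genes had a median of 0.099 in PS and 0.085 in AS against the same controls. The AS medians were -0.11 for oxidative phosphorylation, -0.11 for cytosolic ribosomal proteins, -0.067 for mitochondrial ribosomal proteins and -0.12 for the proteasome. They were -0.14 for cholesterol synthesis, -0.17 for heat shock proteins, -0.18 for the receptors and their machinery and -0.19 for serotonin neuron markers. Other lists differed from PS, with AS medians of 0.028 for endothelial markers, 0.060 for mural cell markers and -0.30 for the mitochondrial genome. In the 2 AS DEX libraries Nkd2 had 281 and 329, Kcnj5 295 and 339, Trem2 228 and 231 and Rn7sk 174 and 156 normalized counts.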

How the data were processed

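PolyA RNA of the dorsal raphe nucleus was measured in 16 mouse libraries of 6 groups, of which 6 made the comparison. The authors trimmed, aligned to GRCm38 and counted reads per gene; the submitters' processing notes name fastp 0.20.1, HISAT2 2.2.1, featureCounts of Subread 2.0 and DESeq2 1.36.0. The deposited values are a signal, counts divided by a size factor per library, for 14504 genes. Whole reads were recovered from the value of 1 read in each library, with 100% of values whole within 0.01 reads, which gave 38207157 to 62447298 reads per library. The filter of 10 reads in every library that the study states is not seen in the table, where 973 genes are under it in at least 1 library. The deposited tables of the authors' own comparisons hold log2 fold changes, p-values and adjusted p-values and were not used.

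Log2(normalized count + 1) was fitted with limma 3.58.1 in R 4.3.3, as 6 group means over all 16 libraries, moderated by eBayes with its trend option. Residual degrees of freedom were 10 and prior ones 3.88. Benjamini-Hochberg adjustment ran over all genes of a contrast, and genes were called at an adjusted p under 0.1, the study's threshold. edgeR 4.0.16 and DESeq2 1.42.0 on the recovered reads, other scalings, filters and pseudocounts, library weights and each library left out were alternatives. Positions are from GENCODE vM21 (GRCm38), which held 14493 of the genes (99.92%), and promoters from RefSeq.

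The named genes were the 12 higher and 12 lower genes with the smallest unadjusted p among those without overlap and a mean of at least 50, up to 4 such members of each list at an unadjusted p under 0.05, and a set named whatever their values. Others are said to have been chosen after their values were seen, or serve as examples of a list. The members and lists were chosen with earlier results of these data known. No list was given a test. The limma fit, but not edgeR or DESeq2, was tested on simulated counts. These were drawn independently for each gene, without effects shared by many genes of a library. GEO's protocol describes a strand-specific kit, and the strand setting of the counting is not given in the sources used here. Intervals of the fits cover the spread between these animals. Other dorsal raphe libraries that the study describes were not analysed here.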

Additional observations from a re-analysis of the deposited data

How the results depend on the processing

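The count of 0 called genes for PS against control after DEX held under every alternative run, at each library left out, and with the protein-coding genes alone or without both dep1_dex_34 and con_dex_116, alternatives added after seeing the data. The count at an unadjusted p under 0.05 (178) was 1209 with library weights, whose estimation stopped before converging and gave weights from 0.184 to 5.66, and 296 with only the 6 libraries fitted. With quantile normalization 83 of 174 such genes were higher, against 107 of 178; the median of all genes was -0.00028 as deposited, 0.0036 with TMM and -0.014 with quantile normalization. DESeq2 called 4 genes for PS against control after saline and 2 for the average over both arms, where limma called 0. With 1 library left out the saline count ran from 0 to 15 (15 without con_sal_102, 8 without dep1_sal_62), that of the difference between stress effects from 0 to 1 (1 without dep1_sal_62) and that of the average from 0 to 2 (2 without con_sal_102, 1 without dep1_sal_62). In fits that left a group with 1 library, that library was assumed to vary like the others. The cause of these shifts was not tested. Some named genes turned sign. With quantile normalization Mbp was at 0.017 and Junb at -0.018. With library weights Htr5b was at 0.16, Ttr at 0.12 and Mbp at 0.12. Without dep1_dex_34 and con_dex_116 Cx3cr1 was at 0.042, Plin4 at -0.0049, Cp at 0.095, Ttr at 0.19 and Fev at 0.039. With 1 library left out the ranges were -0.14 to 0.0025 for Hrh1, -0.47 to 0.051 for Th, -0.13 to 0.063 for Mbp, -0.10 to 0.20 for Junb, -0.80 to 1.11 for Foxj1, -0.033 to 0.38 for Plin4, -0.42 to 0.12 for Htr5b, -0.24 to 0.082 for Cp, -0.51 to 0.25 for Ttr, -0.049 to 0.039 for Htr1d and -0.088 to 0.031 for Fev. No paired analysis was possible because the animal numbers in the labels differ between the groups. With 3 animals a group, the 95% interval lay within -0.5 to 0.5 for 54.4% of genes.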

Other observations

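Several further genes were chosen for mention after their values were seen, and Cartpt and Spp1 among them belong to the neuropeptide and fibroblast lists. Spp1, osteopontin, a secreted matrix protein of activated microglia and fibroblasts (chromosome 5, 104435118 to 104441050), had 318, 325 and 201 normalized counts in PS and 451, 2269 and 318 in controls, so that its difference of -1.32 (SE 0.78) came with 1 high control library, con_dex_116. Cartpt, the precursor of the CART peptides (chromosome 13, 99898489 to 99901091), had 89.1, 173 and 106 and 2968, 128 and 91.7, with 1 high control library, con_dex_101. Car9, a carbonic anhydrase (chromosome 4, 43506966 to 43513729), and Rd3 (chromosome 1, 191977370 to 191988283) had their lowest values in dep1_dex_6 and con_dex_101, as did Foxj1, at 5.43, 144 and 362 and 1.09, 97.96 and 267 in PS and 1.16, 125 and 94.2 and 23.2, 136 and 133 in controls.

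Genes at the boundary of the X and Y pseudoautosomal region, where near-identical copies make counts uncertain, are given together. Mid1, a ubiquitin ligase of microtubules (chromosome X, 169685199 to 170005736), had 531, 1143 and 1096 in PS and 718, 351 and 808 in controls, a difference of 0.57 (SE 0.44), and 0.0027 without dep1_dex_34 and con_dex_116. Its difference was -1.14 after saline (limma unadjusted p of the difference between arms 0.0217). Gm21887 (chromosome X, 170009659 to 170019281) had 169, 554 and 380.4 and 138, 76.6 and 155, a difference of 1.47 after DEX and -1.36 after saline (limma unadjusted p 0.00710). Gm47283 (chromosome Y, 90784738 to 90816464) had 609.5, 1691 and 1513 and 495, 377 and 523. Library dep1_dex_6 was the lowest PS library and con_dex_116 the lowest control library in all 3. The pseudogene Mid1-ps1 (chromosome Y, 90753057 to 90763485) had 32.6, 140.3 and 184.9 and 62.7, 40.6 and 37.3, so that con_dex_122 was its lowest control. Its difference was 1.04 (SE 0.78) after DEX and, unlike those of Mid1 and Gm21887, also positive after saline, at 0.84. None of these differences passed the adjustment over genes.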
